A study of Mus musculus with 6 samples.

Results

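The amino acid transporter families SLC1, SLC3, SLC6, SLC7, SLC36, SLC38 and SLC43 were followed in round spermatids, haploid male germ cells that have yet to elongate. Members were the rows of the deposited count table whose gene symbol was Slc, then 1, 3, 6, 7, 36, 38 or 43, then the letter a and a number. This rule took 40 of 22770 gene rows: 5 of SLC1, 2 of SLC3, 9 of SLC6, 10 of SLC7, 4 of SLC36, 8 of SLC38 and 2 of SLC43. The rule reads names only. Slc6a20a and Slc6a20b, whose names end in a letter, fall outside it and are counted with other carriers below. The libraries were 3 of the mouse genotype labelled Eif5a SKO and 3 labelled wild type, all from spermatids of postnatal day 28 testes, sorted by flow cytometry and mostly of step 8. The sources used here do not state the meaning of SKO, the allele, the driver of any deletion, the strain or the number of mice behind each library, so p-values measure the spread between these libraries. The product of Eif5a is a hypusine-bearing factor that relieves ribosomes stalled during elongation and aids termination. Its counts were 270 to 338 in the SKO libraries and 36162 to 41278 in wild type, as its genotype label calls for.

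Solute carriers of these families move amino acids and their relatives across membranes. SLC1 carriers take up glutamate or exchange neutral amino acids. SLC3 proteins are heavy chains that bring SLC7 light chains to the cell surface, and other SLC7 proteins carry cationic amino acids alone. SLC6 carriers use the sodium gradient to take up GABA, taurine, creatine, glycine, monoamines or amino acids. SLC36 carriers are coupled to protons, SLC38 carriers move glutamine and other neutral amino acids, and SLC43 carriers move large neutral amino acids or nucleobases. In the testis, taurine and glutamine are abundant, and germ cells behind the blood-testis barrier depend on carriers for amino acids.

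Library totals ran from 52055193 to 60970931 counts, with 21177 to 22006 genes detected. SKO replicate 3 stood apart from the other SKO libraries on the second principal component, at -71.4 against 40.3 and 37.6. Levels are in CPM, that is counts scaled to TMM-adjusted library size, as mean ± SD with n = 3. Log2 fold changes set SKO against wild type and carry the SE of edgeR's quasi-likelihood fit, and a gene was called at a Benjamini-Hochberg adjusted p under 0.05 over all 19776 genes tested. Of all genes tested, 42.0% were called, 21.2% higher and 20.9% lower, with a median of 0.01. Scaling by library totals alone moved that median to -0.23 and the calls from 4185 higher and 4127 lower to 2831 higher and 5666 lower. Directions therefore hold relative to the scaling.

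More members were lower than higher in SKO spermatids, and the widest change was a rise, that of Slc38a5. Of 40 members 38 passed the filter on low counts. Of these, 4 were higher in SKO and 13 lower, which is 10.5% and 34.2% of the members tested against the 21.2% and 20.9% of all genes given above. Their median was -0.60 and 28 of 38 had a negative log2 fold change. After the correction for transcript length and GC content given below, the share of lower members was no longer above that of all genes. The other SLC genes of the table, outside the naming rule, had 21 of 172 higher and 43 lower with a median of -0.22. The 4 higher members were Slc38a5, Slc7a9, Slc6a13 and Slc7a3. The 13 lower members were Slc7a14, Slc6a12, Slc6a16, Slc6a11, Slc7a7, Slc36a1, Slc36a3, Slc6a6, Slc38a10, Slc43a2, Slc6a21, Slc3a2 and Slc1a2. Without SKO replicate 3 the counts were 6 higher and 13 lower, and without wild-type replicate 3 they were 4 higher and 8 lower. The 13 lower without SKO replicate 3 were not the same genes. Slc6a12 and Slc36a1 lost their calls there, and Slc7a10 and Slc38a8 were called lower.

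**Figure D1:**
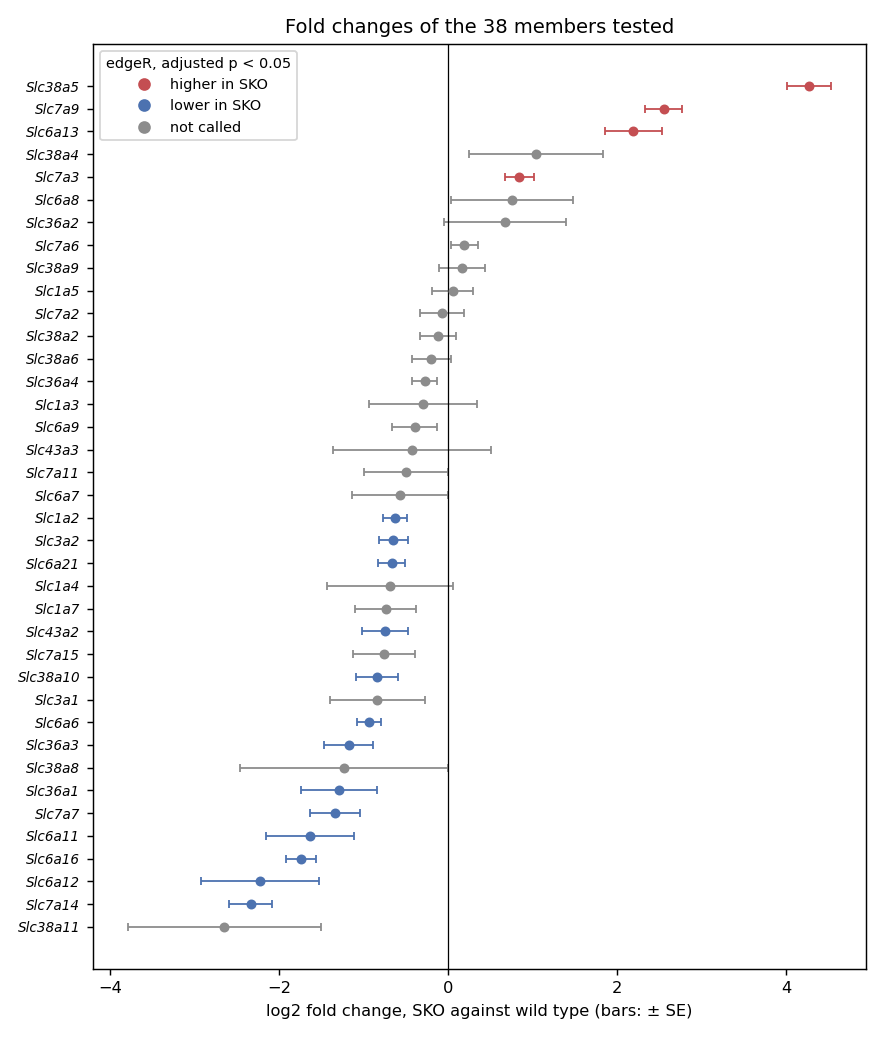
Log2 fold change of each of the 38 members tested, SKO against wild type, with bars for ± SE from edgeR and colours for the call at an adjusted p under 0.05. The 13 lower members lie between -2.34 and -0.63, and Slc38a5 stands alone at 4.27.

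Of the 13 lower calls, 7 ended once transcript length and GC content were corrected for. The members tested had a median transcript length of 3422 bases, against 2299 bases for all genes tested that had a length. There were 19203 such genes, and the corrected shares and median of all genes given here are over them. A correction of each library for length and GC content left 5 members higher and 6 lower of the 38 tested, while 21.4% of all genes were higher and 19.7% lower. The share of lower members was then below that of all genes. The median of the members was -0.27, against 0.03 for all genes. The 6 lower calls that held were those of Slc7a14, Slc6a16, Slc7a7, Slc36a3, Slc6a6 and Slc1a2. The lower calls of Slc3a2, Slc6a21, Slc38a10, Slc43a2, Slc6a11, Slc6a12 and Slc36a1 ended, with adjusted p (edgeR) from 0.0729 to 0.216. Their sizes moved unequally. Slc6a21 went from -0.67 to -0.25, Slc3a2 from -0.65 to -0.27, Slc38a10 from -0.84 to -0.32 and Slc43a2 from -0.75 to -0.40 on the log2 scale. Slc6a12 went from -2.23 to -1.82, Slc6a11 from -1.64 to -1.14 and Slc36a1 from -1.29 to -0.85. All 4 higher calls held. The part of length in these differences was not tested beyond this correction.

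**Figure D2:**
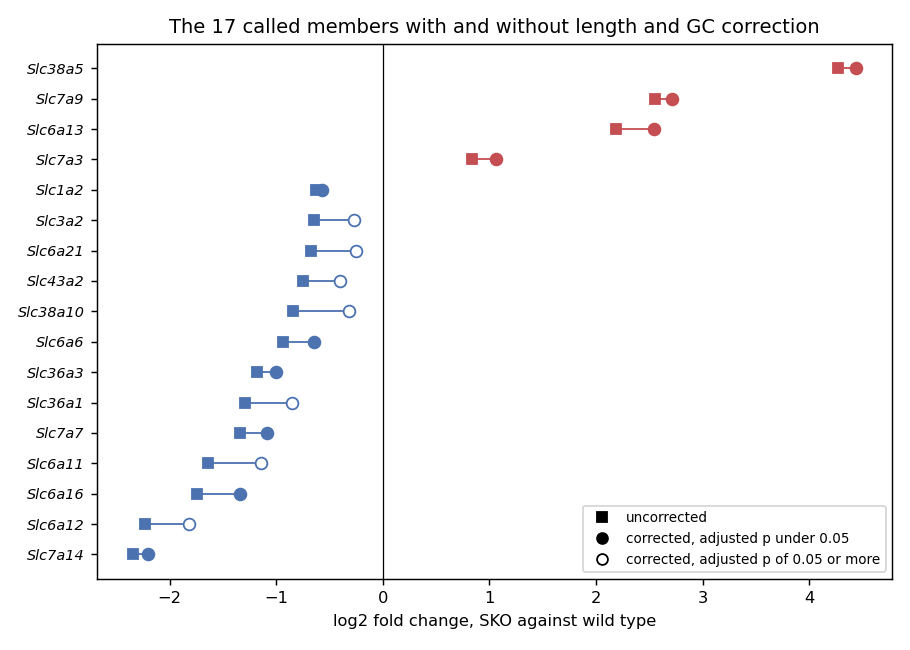
Log2 fold change of the 17 called members before (squares) and after (circles) correction for transcript length and GC content, with open circles for an adjusted p of 0.05 or more. All 17 points moved to the right, and 7 of the 13 lower members became open circles, from Slc6a12 at -1.82 to Slc6a21 at -0.25.

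Scaled for transcript length, wild-type spermatids expressed 1 member far above the rest. Slc6a21, an SLC6 member of unassigned substrate, stood at 122.4 ± 19.6 CPM per kb in wild type, above 95.5% of genes tested with a length. Slc36a3 followed at 27.7 ± 1.2, Slc6a6 at 23.2 ± 1.5, Slc6a16 at 21.4 ± 1.38, Slc38a9 at 20.7 ± 1.17, Slc7a6 at 16.4 ± 0.537 and Slc3a2 at 9.17 ± 1.21 CPM per kb. The ranges of Slc6a6, Slc6a16 and Slc38a9 overlapped their neighbours in that order, so these 3 are not ordered beyond their spread. The ranges of successive members also overlapped in SKO from Slc38a9 to Slc6a6. There the order below Slc6a21, at 76.8 ± 10.8 CPM per kb, became Slc38a9 at 23.1 ± 9.27, Slc7a6 at 18.6 ± 3.32, Slc36a3 at 12.2 ± 5.1, Slc6a6 at 12.1 ± 1.36 and Slc6a16 at 6.4 ± 1.32 CPM per kb. Slc38a5 moved from place 31 to place 10 among the 38 members. The summed level of all 40 members was 972.9, 1094 and 990.9 CPM across wild type against 837.1, 786.0 and 617.0 CPM in SKO, and Slc6a21 with Slc38a9 made up 51.3% to 59.4% of it in every library. In bulk libraries, fewer cells of a type and less RNA per cell cannot be told apart.

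**Figure D3:**
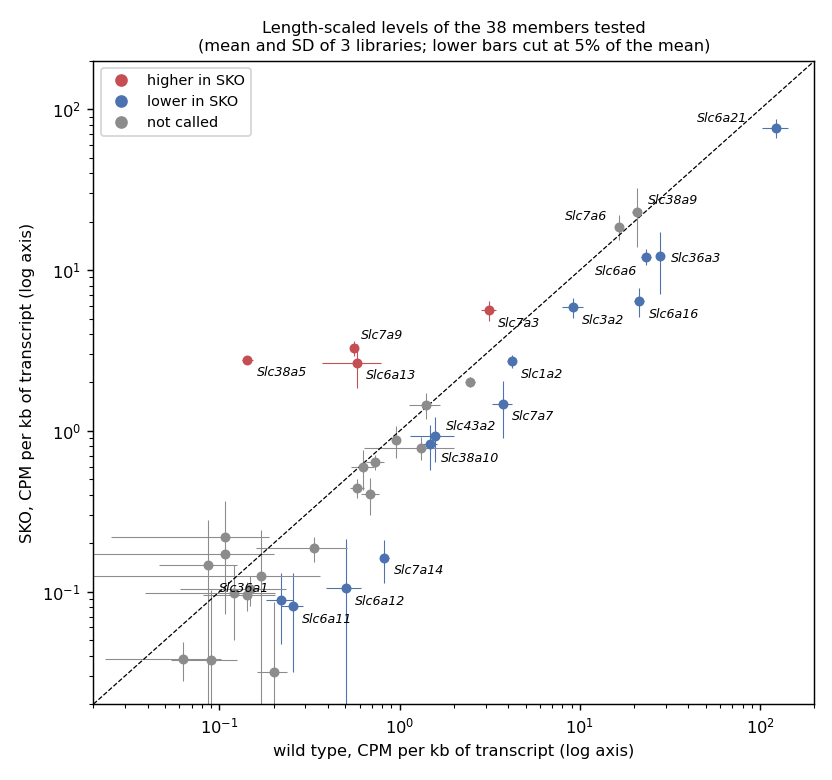
Mean level per kb of transcript in wild type (x axis) and SKO (y axis) for the 38 members tested, both axes logarithmic, with bars for the SD of 3 libraries and a dashed line of equality. Most of the members above 3 CPM per kb in wild type lie below the line, and Slc38a9, Slc7a6 and Slc7a3 above it.

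Among the SLC6 carriers of GABA, taurine and creatine, 3 of 5 were lower and 1 higher, or 60% and 20%, against 20.9% and 21.2% of all genes. Slc6a6, the taurine transporter, had 136.2, 154.1 and 140.8 CPM across wild type against 73.3, 67.2 and 83.8 CPM in SKO. The groups lay far apart, and it fell by 0.94 ± 0.14 on the log2 scale (edgeR adjusted p = 0.000604). Slc6a13, which encodes the GABA and taurine carrier GAT2, had 1.14, 1.82 and 0.93 CPM across wild type against 6.51, 7.4 and 3.92 CPM in SKO, so that every SKO library was above every wild-type library. Its log2 fold change was 2.19 ± 0.34 (edgeR adjusted p = 0.000823). Slc6a12, the betaine and GABA carrier gene, went the other way, from 1.32 ± 0.299 to 0.278 ± 0.285 CPM, on counts of 2, 32 and 10 in SKO. Its log2 fold change was -2.23 ± 0.70 (edgeR adjusted p = 0.029). Leaving out SKO replicate 3 or wild-type replicate 2 or 3 ended that call (edgeR adjusted p = 0.0536, 0.103 and 0.0644). Slc6a11, another GABA carrier gene, fell from 1.05 ± 0.151 to 0.335 ± 0.203 CPM (edgeR adjusted p = 0.0303), a call that ended without SKO replicate 1 or without any 1 of the 3 wild-type libraries (0.065 to 0.0995). Slc6a8, the X-linked creatine transporter gene, was at 0.341 ± 0.157 CPM across wild type against 0.578 ± 0.529 CPM in SKO and was not called.

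**Figure D4:**
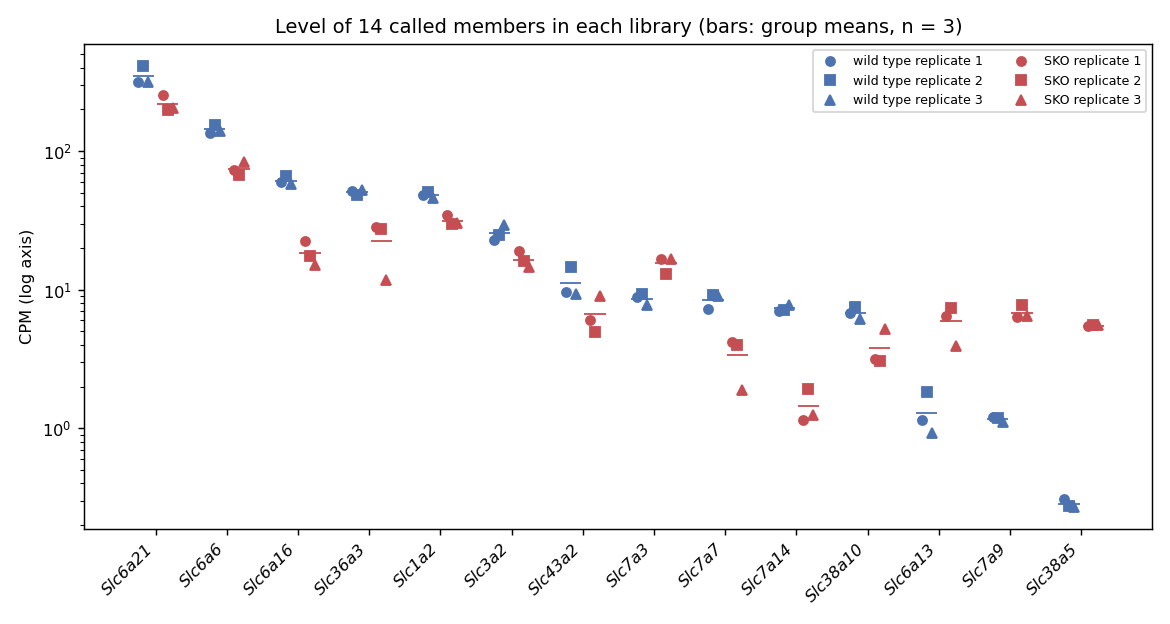
CPM of the 14 members called, not overlapping between groups and at 5 CPM or more in the higher group, in each library on a log axis, with bars for group means. Slc38a5 has the widest gap, with SKO libraries at 5.43 to 5.55 CPM and wild type at 0.272 to 0.307 CPM.

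Slc6a13 and Slc6a12, called in opposite directions, are neighbours on the plus strand of chromosome 6 (GRCm38). Slc6a13 spans 121300227 to 121337733 and Slc6a12 spans 121343076 to 121365775, with 5342 bases between them and no shared 100-base window of transcript. The 250 bases before a RefSeq start of each (GRCm38.p6) are printed because the pair lies so close and moved apart. They are chr6:121300038-121300287 and chr6:121342826-121343075, both on the plus strand, 60.8% and 55.6% G or C. The RefSeq start of Slc6a13 lies 61 bases inside its GENCODE span, and that of Slc6a12 at the edge of its span. Nothing is in capitals, as neither holds a match to the motifs searched.
Slc6a13: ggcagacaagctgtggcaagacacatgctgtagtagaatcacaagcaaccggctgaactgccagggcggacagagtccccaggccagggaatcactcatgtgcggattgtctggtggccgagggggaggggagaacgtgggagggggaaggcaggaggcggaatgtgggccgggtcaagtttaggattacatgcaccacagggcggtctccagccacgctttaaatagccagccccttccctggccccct
Slc6a12: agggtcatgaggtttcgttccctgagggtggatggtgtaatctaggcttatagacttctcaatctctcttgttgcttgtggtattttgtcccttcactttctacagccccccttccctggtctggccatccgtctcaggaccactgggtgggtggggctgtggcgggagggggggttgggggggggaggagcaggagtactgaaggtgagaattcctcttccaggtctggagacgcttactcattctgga
The motifs were the core of the cAMP response element, TGACG, which CREM-type activators of spermatids bind, its full form, TGACGTCA, which contains that core, and the amino acid response element TGATGNAAN of ATF4, each on both strands of the 250 bases before every annotated start. Promoters of 31 of the 40 members were matched in the table. TGACG lay before 10 of these 31 (32.3%), against 19.8% of all 27025 genes, and before 0 of 3 higher and 3 of 12 lower members. TGATGNAAN lay before 3 of the 31, namely Slc6a21, Slc7a7 and Slc7a11, against 3.89% of all genes. Slc6a12 has 5 starts in the table, and its TGACG match lies before another of them. A match describes letters in this window only.

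The most abundant SLC6 members fell. Slc6a21 had 316.8, 411.7 and 313.9 CPM across wild type against 252.9, 197.2 and 203.5 CPM in SKO. The log2 fold change was -0.67 ± 0.16 (edgeR adjusted p = 0.00734), and -0.25 after the length and GC correction (adjusted p = 0.162). Slc6a16, whose substrate is not established, had 60.2, 65.7 and 58 CPM across wild type against 22.5, 17.6 and 15 CPM in SKO. No SKO library came near the wild-type range, and it fell by 1.74 ± 0.18 on the log2 scale (edgeR adjusted p = 9.44e-05). The pair are also neighbours, 4145 bases apart on the plus strand of chromosome 7, Slc6a16 from 45241085 to 45273367 and Slc6a21 from 45277513 to 45288998. Their transcripts shared no 100-base window. Slc6a9, a glycine carrier gene, and Slc6a7, a proline carrier gene, were not called, at 2.02 and 0.478 CPM in wild type. Every SKO library of Slc6a9 was below wild type (log2 fold change -0.40 ± 0.27, edgeR adjusted p = 0.268). Ccdc24, on the opposite strand, overlaps 27.8% of the exonic bases of Slc6a9, so the counts of Slc6a9 are uncertain.

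Of the 8 SLC7 genes tested, 2 were higher, 2 lower and 4 not called. The shares higher and lower were 25% each, against 21.2% and 20.9% of all genes. Slc7a9, which encodes the light chain of the cystine and cationic amino acid exchanger, had 1.21, 1.18 and 1.11 CPM across wild type against 6.38, 7.72 and 6.44 CPM in SKO. The spread within each group was small beside that gap, and the log2 fold change was 2.55 ± 0.22 (edgeR adjusted p = 4.82e-05). Slc7a3, an X-linked cationic amino acid transporter gene, had 8.91, 9.29 and 7.71 CPM across wild type against 16.8, 13 and 16.6 CPM in SKO, and rose by 0.84 ± 0.17 (edgeR adjusted p = 0.00394). The groups did not overlap for either gene, as for 55.6% of all genes.

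Slc7a14 and Slc7a7 fell. Slc7a14, which encodes a relative of the cationic amino acid transporters, had 7, 7.18 and 7.79 CPM across wild type against 1.14, 1.93 and 1.25 CPM in SKO. The log2 fold change was -2.34 ± 0.26 (edgeR adjusted p = 0.000139). Slc7a7, the light chain of an exchanger of cationic for neutral amino acids, had 7.29, 9.2 and 8.99 CPM across wild type against 4.17, 4.01 and 1.88 CPM in SKO. It fell by 1.34 ± 0.30 on the log2 scale (edgeR adjusted p = 0.0054). Reads of Oxa1l, on the opposite strand, can fall in 7% of its exonic bases. Slc7a6, a light chain gene of the same exchange activity and the most abundant SLC7 member, had 61.8, 59.3 and 63.2 CPM across wild type against 80.2, 73.4 and 56 CPM in SKO. Its groups overlapped and it was not called (log2 fold change 0.19 ± 0.16, edgeR adjusted p = 0.373). It passed without SKO replicate 3 (0.29, adjusted p = 0.0476) and after the length and GC correction (0.42, adjusted p = 0.0461), and its sign turned under library totals alone (-0.06).

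The 250 bases before a RefSeq start of the light chain genes Slc7a9 and Slc7a7 are shown because these genes moved in opposite directions and a match to the amino acid response element, in capitals, lies before Slc7a7 alone of the pair. They are chr7:35448842-35449091 on the plus strand and chr14:54417703-54417952 on the minus strand (RefSeq, GRCm38.p6), 44.4% and 62.4% G or C.
Slc7a9: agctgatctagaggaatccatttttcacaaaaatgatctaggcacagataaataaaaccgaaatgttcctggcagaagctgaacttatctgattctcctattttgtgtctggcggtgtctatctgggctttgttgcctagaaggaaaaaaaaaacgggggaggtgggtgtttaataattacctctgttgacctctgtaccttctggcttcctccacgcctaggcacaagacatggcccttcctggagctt
Slc7a7: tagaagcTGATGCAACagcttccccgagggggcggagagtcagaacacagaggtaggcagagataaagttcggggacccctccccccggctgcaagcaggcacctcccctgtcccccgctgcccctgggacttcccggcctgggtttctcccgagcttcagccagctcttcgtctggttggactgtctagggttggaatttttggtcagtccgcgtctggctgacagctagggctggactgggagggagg
The gene spans are 35448796 to 35466036 on chromosome 7 for Slc7a9 and 54369442 to 54417780 on chromosome 14 for Slc7a7 (GENCODE). The RefSeq start used for Slc7a9 lies 296 bases inside that span, so the whole window printed for it is within the annotated gene. The start used for Slc7a7 lies 78 bases inside its span, and the window overlaps the gene by that much.

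Of the 2 heavy chain genes, 1 was lower (50%, against 20.9% of all genes) and 1 not called. Slc3a2, which encodes the CD98 heavy chain and partner of Slc7a6 and Slc7a7, had 22.9, 25 and 29.5 CPM across wild type against 19, 16 and 14.5 CPM in SKO. All SKO libraries were below wild type, and it fell by 0.65 ± 0.17 (edgeR adjusted p = 0.0126), a call that ended without wild-type replicate 3 (adjusted p = 0.0646) and after the length and GC correction (adjusted p = 0.216). Slc3a1, the heavy chain partner of Slc7a9, stood at 0.759 ± 0.398 CPM across wild type against 0.423 ± 0.0751 CPM in SKO (log2 fold change -0.84 ± 0.56, edgeR adjusted p = 0.253), and 26.5% of its exonic bases overlap Prepl. Per kb of transcript, Slc7a6 stood at 2.03, 1.78 and 1.61 times the level of Slc3a2 in wild type and at 3.17, 3.45 and 2.89 times in SKO. The ratio of Slc7a7 to Slc3a2 was 0.394, 0.455 and 0.376 in wild type and 0.272, 0.31 and 0.16 in SKO. The ratio of Slc7a9 to Slc3a1 was 1.25, 4.17 and 1.32 in wild type and 19.8, 16.8 and 16.8 in SKO. None of these 3 ratios overlapped between groups, while the CPM of single genes did not overlap for 55.6% of all genes. Only these 3 pairs were formed. No ratio was taken for other light chain genes, such as Slc7a11, whose own CPM overlapped between groups. The ratios are given as a description of the chosen pairs, with no test.

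Among SLC38 genes 1 of 8 was higher and 1 lower, 12.5% each, against 21.2% and 20.9% of all genes. Slc38a5, an X-linked system N carrier gene for glutamine, had 18, 16 and 17 counts in wild type and 263, 299 and 279 in SKO, or 0.307, 0.273 and 0.272 CPM against 5.43, 5.55 and 5.52 CPM. Both groups were tight, and the log2 fold change was 4.27 ± 0.26 (edgeR adjusted p = 1.09e-05). The gene lies on the plus strand of X from 8271133 to 8280179. Slc38a10 had 6.75, 7.45 and 6.16 CPM across wild type against 3.18, 3.04 and 5.17 CPM in SKO, with SKO replicate 3 nearest to wild type. It fell by 0.84 ± 0.25 (edgeR adjusted p = 0.0218), a call that ended without SKO replicate 1 or 2 or wild-type replicate 1 or 2 (adjusted p = 0.0573 to 0.0792).

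Slc38a9, the lysosomal arginine sensor that signals to mTORC1, was the second most abundant member by CPM. It had 185.1, 173.8 and 194.7 CPM across wild type against 236.3, 269.4 and 112.8 CPM in SKO. SKO replicates 1 and 2 were above and SKO replicate 3 below the whole wild-type range, and it was not called (log2 fold change 0.16 ± 0.27, edgeR adjusted p = 0.661). Without SKO replicate 3 it was higher (0.42, adjusted p = 0.00559), and without SKO replicate 2 its sign turned (-0.11, adjusted p = 0.775), as it did under library totals (-0.1). The glutamine and alanine carrier gene Slc38a2 stood at 5.84 ± 0.137 CPM across wild type against 5.38 ± 1.22 CPM in SKO and was not called. Slc38a4, Slc38a6, Slc38a8 and Slc38a11 were at 2.88 CPM or less in both groups and were not called. Slc38a11 was called lower by limma-voom (adjusted p = 0.0165) and without SKO replicate 1 (edgeR adjusted p = 0.00508), and Slc38a8 without SKO replicate 3 (edgeR adjusted p = 0.0136). A share of 53.9% of the 100-base transcript windows of Slc38a6 occurs in transcripts of other genes, so its counts are uncertain.

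The SLC36 genes on chromosome 11 gave 2 lower calls. These were 2 of the 4 SLC36 genes tested (50%), against 20.9% of all genes. Slc36a3, a testis-expressed member of the proton-coupled family, had 51.7, 48.4 and 52.6 CPM across wild type against 28.4, 27.5 and 11.7 CPM in SKO. SKO replicate 3 was the lowest by far, and the log2 fold change was -1.18 ± 0.29 (edgeR adjusted p = 0.00916). It lies from 55124815 to 55151708 on the minus strand, 6761 bases from Slc36a2, and Slc36a1 is 19272 bases beyond. Slc36a1, a lysosomal and surface carrier of small neutral amino acids, fell from 1.15 ± 0.196 to 0.47 ± 0.22 CPM (edgeR adjusted p = 0.0431). This call ended without SKO replicate 2 or 3 or without any 1 of the 3 wild-type libraries (0.0747 to 0.146) and with TMM on autosomal genes (0.051). Slc36a2 stood at 0.263 ± 0.226 CPM across wild type against 0.417 ± 0.0575 CPM in SKO and was not called. Slc36a4, on chromosome 9, had 15 to 17.1 CPM across wild type against 12.2 to 13.9 CPM in SKO. Its groups did not overlap, yet it was not called (log2 fold change -0.28 ± 0.15, edgeR adjusted p = 0.156) except under library totals (-0.52, adjusted p = 0.0213).

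In SLC1 and SLC43, 1 member of each was lower, Slc1a2 and Slc43a2, and the other 5 were not called. The lower shares were 20% of the 5 SLC1 genes and 50% of the 2 SLC43 genes, against 20.9% of all genes. Slc1a2, the sodium-driven glutamate carrier known from glia, had 48.6, 51.1 and 45.8 CPM across wild type against 34.6, 29.6 and 30.1 CPM in SKO, and fell by 0.63 ± 0.14 (edgeR adjusted p = 0.00574). Its transcript of 11595 bases is the longest of all members, and its value changed little with the length and GC correction (-0.57). Slc1a5, the glutamine exchanger gene, stood at 3.94 ± 0.782 CPM across wild type against 4.07 ± 0.738 CPM in SKO and was not called, nor were the glutamate carrier genes Slc1a3 and Slc1a7 or the neutral exchanger gene Slc1a4. Slc1a7 was called lower without wild-type replicate 1 (edgeR adjusted p = 0.0493). Slc43a2, a carrier of large neutral amino acids, had 9.57, 14.7 and 9.31 CPM across wild type against 6.07, 4.97 and 8.99 CPM in SKO. The groups nearly touched, and it was called by a small margin (log2 fold change -0.75 ± 0.27, edgeR adjusted p = 0.0461), a call that ended without any 1 of the libraries other than SKO replicate 3 (0.0542 to 0.198), with upper quartile factors (0.059) and with TMM on autosomal genes (0.0597). Slc43a3, a nucleobase carrier gene, averaged 0.446 CPM over wild-type and 0.33 CPM over SKO libraries and was not called.

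The remaining members were scarce. Slc7a2, a cationic amino acid transporter gene, stood at 4.97 ± 0.731 CPM across wild type against 4.7 ± 1.32 CPM in SKO and was not called. Slc7a11, the cystine and glutamate exchanger gene, and Slc7a15 were at 1.35 and 1.31 CPM across wild type against 0.956 and 0.773 CPM in SKO, and were not called. Slc7a12 and Slc7a10 were below the filter. Slc7a10, a light chain gene for small neutral amino acids, had 10, 4 and 26 counts in wild type and 0 in every SKO library. At 3 counts, a count of 0 leaves room for 0.0557 to 0.062 CPM there, for counting error only. Without a filter edgeR called it lower (adjusted p = 0.0209), as did DESeq2 (adjusted p = 0.00439), and 17.9% of its exonic bases overlap Lrp3. Of the 13 members tested with a mean under 1 CPM over the 6 libraries 3 were lower (23.1%), against 11.1% of all genes at that level. At this depth small differences in such genes were not detectable.

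The 2 higher members on X stood on a chromosome with many higher genes. The median of the 740 genes tested on X was 1.31, and 63.4% of them passed as higher. Slc7a3, at 0.84, lay below and Slc38a5, at 4.27, far above that median. The third member on X, Slc6a8, was not called. Among the 35 autosomal members tested 2 were higher and 13 lower, or 5.71% and 37.1%, against 18.7% and 22.0% of autosomal genes.

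Most Sertoli cell markers and some Leydig cell markers were higher in the SKO libraries. Of 14 Sertoli cell markers in the table, out of 25 listed, 12 were higher (85.7%), against 21.2% of all genes. None of the 14 was at 0 in all SKO libraries. Their summed level was 245.0, 142.3 and 79.3 CPM in SKO replicates 1, 2 and 3 and 4.87, 7.98 and 14.9 CPM in wild type. Of 7 Leydig cell markers in the table, out of 11 listed, 4 were higher (57.1%) and 3 not called. The Leydig markers summed to 55.6, 11.3 and 47 CPM in SKO and 1.5, 1.93 and 23 CPM in wild type. Across the same 3 SKO libraries Slc38a5 ran from 5.43 to 5.55 CPM, Slc7a9 from 6.38 to 7.72 CPM, Slc7a3 from 13 to 16.8 CPM and Slc6a13 from 3.92 to 7.4 CPM. Without SKO replicate 1, the library with the highest Sertoli and Leydig sums, all 4 higher calls remained. The Sertoli sums of SKO replicates 2 and 3 still lay above every wild-type library, so leaving out replicate 1 cannot separate somatic RNA from these rises. The part of somatic RNA in these rises was not tested.

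**Figure D5:**
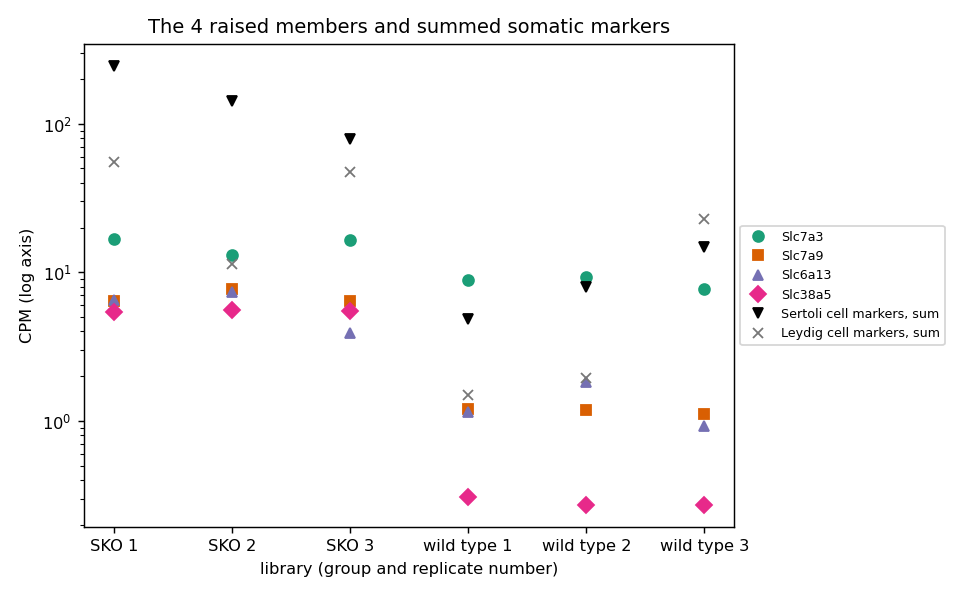
CPM of the 4 higher members and the summed CPM of Sertoli and Leydig cell markers in each library, on a log axis. In SKO, Slc38a5 runs from 5.43 to 5.55 CPM and the Sertoli sum from 79.3 to 245.0 CPM. In wild type the Leydig sum runs from 1.5 to 23 CPM.

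The defining markers of the labelled cell type were abundant. Round spermatid markers summed to 8788 to 9982 CPM in SKO and 6796 to 7337 CPM in wild type, and elongating spermatid markers to 8286 to 8881 and 6097 to 6480 CPM. Of 14 round spermatid markers 7 were higher (50%) and 1 lower. Of 12 elongating spermatid markers 7 were higher (58.3%) and 0 lower, where 21.2% of all genes were higher and 20.9% lower. Spermatocyte markers summed to 1536 to 2098 CPM in SKO and 1825 to 1858 CPM in wild type, and spermatogonia markers to 25 to 27.8 and 29 to 32.2 CPM. Single markers moved within these sums. Of 12 spermatocyte markers 2 were higher and 2 lower (16.7% each), and of 6 spermatogonia markers 2 were lower (33.3%) and 0 higher. At an unadjusted p under 0.05 by edgeR, 2 spermatogonia markers were higher and 2 lower. Peritubular myoid markers summed to 137.5 to 165.4 CPM in SKO and 234.2 to 237.5 CPM in wild type. Of the 6, Actg2 alone had a negative log2 fold change and was lower, from 221.1 ± 11.1 to 89.6 ± 9.11 CPM, while Acta2 (1.87 ± 0.37) and Tpm2 (3.05 ± 0.63) were higher and the other 3 were not called. Macrophage, endothelial and red blood cell markers reached at most 38.8 CPM in any library. Macrophage markers had 2 of 8 higher and 1 lower, and endothelial markers 1 of 3 lower, Kdr, at -2.06 ± 0.28.

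Among other genes that handle amino acids, those listed as carriers were lower or not called. Genes of sensing were called about as often as all genes. The list of other amino acid carriers had 27 genes, of which 15 were tested. These 15 hold Slc6a20a and Slc6a20b of SLC6, and Slc7a6os, the opposite-strand neighbour of Slc7a6, which is not a carrier gene. Of the 15, 5 were lower (33.3%) and 0 higher by edgeR, against 20.9% and 21.2% of all genes, with a median of -0.38. DESeq2 also called 0 higher, and 0 were higher at an unadjusted p under 0.05. Slc15a4, a lysosomal histidine and peptide carrier gene, fell from 9.92 ± 0.654 to 2.7 ± 1.01 CPM (edgeR adjusted p = 0.000603). Slc25a44, a mitochondrial carrier gene for branched-chain amino acids, went from 4.4 ± 0.834 to 1.98 ± 0.0523 CPM (edgeR adjusted p = 0.00378). Slc6a20b, named here after its value was seen, had a log2 fold change of -1.15 ± 0.31 (adjusted p = 0.0141, edgeR), and Slc6a20a and Slc7a6os were not called. After the length and GC correction 1 gene of this list was called higher. Of 35 genes of amino acid sensing by mTORC1, 6 were called higher and 8 lower around a median of -0.02. These shares, 17.1% and 22.9%, were near the 21.2% and 20.9% of all genes. Lamtor2, a subunit of the Ragulator complex that Slc38a9 contacts, and Rheb, the GTPase that activates mTORC1, rose by 0.90 ± 0.18 and 0.83 ± 0.15. Wdr24, of the GATOR complex that relays amino acid supply, fell from 13.7 ± 3.7 to 1.64 ± 0.619 CPM (edgeR adjusted p = 9.08e-05). Itfg2, of the complex that tethers GATOR to lysosomes, fell by 1.84 ± 0.31. After the length and GC correction 10 genes of this list were higher, and without wild-type replicate 1 there were 5 lower.

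The response to amino acid shortage, in which the kinase GCN2 and the activator ATF4 raise transporter genes such as Slc3a2, Slc7a11 and Slc38a2, had 1 of 20 genes tested higher and 4 lower, with a median of 0.17. These shares were 5% and 20%, against 21.2% and 20.9% of all genes. The higher gene was Impact, an inhibitor of GCN2 activation, which rose by 1.99 ± 0.37 (edgeR adjusted p = 0.00228). Chac1, an ATF4 target that degrades glutathione, fell from 11.7 ± 1.17 to 0.843 ± 0.0999 CPM (edgeR adjusted p = 1.09e-05). Psph, an enzyme of serine synthesis, fell by 0.73 ± 0.14 (edgeR adjusted p = 0.0029). Without SKO replicate 3, 4 genes of this list were higher, without wild-type replicate 3 there were 2, and after the length and GC correction 3. Genes for proteins that assist or regulate carriers had 3 of 6 higher and 1 lower, or 50% and 16.7%. Arl6ip1, an endoplasmic reticulum protein gene, was up by 0.89 ± 0.12, and Bsg, the partner of monocarboxylate carriers, by 0.57 ± 0.11. Nedd4l, a ubiquitin ligase gene that acts on carriers, had a log2 fold change of -1.22 ± 0.28. Enzymes of glutamine, glutamate and creatine had 3 of 24 higher and 4 lower, or 12.5% and 16.7%, with a median of -0.19. Got1, an aspartate aminotransferase gene, fell from 29.1 ± 2.78 to 13.8 ± 2.43 CPM (edgeR adjusted p = 0.0011). Ckmt2, a mitochondrial creatine kinase gene, went from 46 ± 2.46 to 22.6 ± 5.47 CPM (edgeR adjusted p = 0.00207). Gatm, the first enzyme gene of creatine synthesis, rose from 0.176 ± 0.305 to 7.23 ± 5.68 CPM (edgeR adjusted p = 0.00534), a wide spread within SKO. Glud1, the glutamate dehydrogenase gene, rose from 0.347 ± 0.0852 to 1.27 ± 0.405 CPM (edgeR adjusted p = 0.0081). Under library totals 9 of these enzymes were lower, and without wild-type replicate 2 or 3 there were 2.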

How the data were processed

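Polyadenylated RNA of sorted round spermatids was amplified by Smart-seq2, which has no molecular identifiers, and sequenced as pairs of 150 bases, per the labels. The deposited file holds raw gene counts, made by the authors, in columns for single libraries, headed cKO where the labels say SKO, and these were joined by genotype and replicate number. The submitters' processing notes name featureCounts 1.5.0-p3 (Subread), HISAT2 2.0.5, Trim Galore 0.6.4 and FastQC, and the build GRCm38 (mm10). The sources used here do not state the annotation, the strand setting or how multi-mapping reads were treated, so reads of overlapping genes on either strand cannot be told apart.

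The counts were filtered with filterByExpr (minimum count 10, minimum total 15), scaled by TMM and tested for group by the quasi-likelihood F test of edgeR 4.0.16 in R 4.3.3. On simulated data of the same group sizes, 200 of 19133 genes tested were changed, drawn from those above 1 CPM in wild type. The test recovered 41.2% of genes changed 2-fold and 90.4% of those changed 4-fold, and 8.55% of its calls were unchanged genes. In the data 42.0% of genes were called, so these shares are not the recovery rates of the real contrast. They do not cover scarcer genes either. Lengths, GC content and positions came from GENCODE M21 (GRCm38), which matched 22023 of 22770 rows by name. The transcript with the longest coding sequence was used. Reads that could be shared were checked with 100-base windows against all transcripts. Replicates of a group differed beyond sampling noise (chi-square per degree of freedom 14.8 to 149 between pairs) and were kept separate.

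Values in every library were given for called members that did not overlap between groups and reached 5 CPM in the higher group, and levels for other called members and for members not called that reached 10 CPM. Further members are given in short, chosen after their values were seen. From each list at most 2 genes higher and 2 lower, with the lowest adjusted p, were named. Members were taken by name, and the families and lists were chosen with earlier results of these data known. The alternatives tried were upper quartile factors, TMM on autosomal genes, scaling by library totals, DESeq2 1.42.0, its size factors in edgeR, limma-voom (limma 3.58.1), no filter, 5 CPM in 3 libraries, thresholds of 0.01 and 0.1, a loess correction for length and GC content, the replicate number as a block, and each replicate left out.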

Additional observations from a re-analysis of the deposited data

How the results depend on the processing

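All 17 called members kept their direction in each of the 18 alternatives that tested them, and 10 of the 17 also kept their call. The thresholds of 0.01 and 0.1 reuse the main fit, so direction could not change there, and 0.1 could not end a call. The count of lower members was 6 after the length and GC correction and 7 at an adjusted p under 0.01, and 8 to 13 with 1 replicate left out. The count of higher members was 2 with a filter of 5 CPM in 3 libraries, which tests fewer genes, and 4 to 6 with 1 replicate left out. The median of the members was -0.56 with upper quartile factors, -0.84 with library totals, -0.54 with TMM on autosomal genes, -0.49 with limma-voom, -0.27 after the length and GC correction and -0.52 with the replicate block, and -0.79 to -0.33 with 1 replicate left out. With upper quartile factors, library totals and TMM on autosomal genes the median of all genes moved alike, from 0.01 to 0.05, -0.23 and 0.07. The replicate numbers did not pair the libraries: same-numbered SKO and wild-type libraries had correlations of deviations of -0.022, -0.051 and -0.065. With the replicate block 4 members were higher and 11 lower, and 3552 and 3666 of all genes, with the calls of Slc36a1 and Slc43a2 (adjusted p = 0.0664 and 0.0668, edgeR) lost. Over all genes, 2742 were lower with the 5 CPM filter, and 2611 were higher and 2553 lower at an adjusted p under 0.01. Leaving out 1 replicate gave 3064 to 4329 higher and 3025 to 4766 lower. Signs turned for Slc7a6 (-0.06) and Slc38a9 (-0.1) under library totals and for Slc38a9 (-0.11) without SKO replicate 2, none of them called. Without SKO replicate 3, Slc38a9 was 0.42. The cause of these changes was not tested. Members under 1 CPM rest on few counts, and each group on 3 libraries.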
